A study of Mus musculus with 2 samples.

Results

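Of 8226 deposited peaks at which Dnmt1 fused to Dam gave a higher signal than Dam alone in mouse embryos, 334 carried an island or a shore mark in the column for CpG island context. They were chosen by that mark alone, at any location. The mark was island at 46 peaks, 0.559% of the list, and shore at 288 peaks, 3.50%. Together they made up 4.06% of the list, with an exact 95% interval of 3.64% to 4.51%. A further 210 peaks carried a shelf mark and 7682 carried none.

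In DamID a chromatin protein is fused to Dam, a bacterial enzyme that methylates adenine in GATC, so that sites the protein visits can be found by sequencing. Dnmt1-Dam, whose fusion also carries a V5 tag, was set against Dam-only, which marks accessible DNA. Each was introduced by injection into embryos of the strain BCF1 (C57BL/6 x CBA/CA), obtained from superovulated females 5 weeks old and cultured in M16 medium, with 50 embryos per construct. Genomic DNA of the pooled embryos was taken at the 4- to 8-cell stage and sequenced after 15 cycles of PCR and size selection around 300 bp. No gene was deleted in either group, and the fusion came from an injected construct rather than from the Dnmt1 locus. Each group was 1 library, so no difference below has a replicate check and no test was possible.

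CpG islands are stretches of DNA in which the CpG dinucleotide has been kept, while most of the mammalian genome has lost it through deamination of methylated cytosine. Many promoters, above all those of housekeeping and developmental genes, lie in an island and stay unmethylated, and the shore is the flanking DNA, where methylation varies more between tissues. Dnmt1 restores methylation on the new strand after replication, and imprinted regions keep theirs in the early embryo while much of the genome loses it.

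The sequences of 4 promoters were picked as examples of the places that the marks and the gene assignments point to. Each is the 250 bases before a transcription start site in RefSeq GRCm38.p6, read 5′ to 3′ on the gene's strand, with every CpG in capitals. Elavl1 encodes an RNA-binding protein that stabilises messenger RNA, and an island peak lies beside its start. Mrvi1 is the gene assigned to an island peak, and Arl6ip1 is the gene that starts at the same position number on GRCm38. Cnot4, which encodes a ubiquitin ligase of the CCR4-NOT complex, has both roles for another island peak.
Elavl1, chr8:4325101-4325350, minus strand: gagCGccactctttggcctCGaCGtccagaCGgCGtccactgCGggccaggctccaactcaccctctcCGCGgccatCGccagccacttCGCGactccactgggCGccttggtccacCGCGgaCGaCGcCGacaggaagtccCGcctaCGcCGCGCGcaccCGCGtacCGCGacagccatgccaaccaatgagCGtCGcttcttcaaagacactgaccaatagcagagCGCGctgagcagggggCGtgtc
Mrvi1, chr7:110982462-110982711, minus strand: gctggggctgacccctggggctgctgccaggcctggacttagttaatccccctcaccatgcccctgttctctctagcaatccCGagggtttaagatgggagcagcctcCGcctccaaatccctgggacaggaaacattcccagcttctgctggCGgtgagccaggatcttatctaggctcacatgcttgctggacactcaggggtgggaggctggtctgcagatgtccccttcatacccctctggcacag
Arl6ip1, chr7:118129626-118129875, minus strand: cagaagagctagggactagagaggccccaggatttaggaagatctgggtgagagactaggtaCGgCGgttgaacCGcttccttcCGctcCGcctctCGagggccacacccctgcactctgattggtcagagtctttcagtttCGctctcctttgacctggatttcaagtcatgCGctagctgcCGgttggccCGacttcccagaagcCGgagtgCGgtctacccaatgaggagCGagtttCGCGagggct
Cnot4, chr6:35133738-35133987, minus strand: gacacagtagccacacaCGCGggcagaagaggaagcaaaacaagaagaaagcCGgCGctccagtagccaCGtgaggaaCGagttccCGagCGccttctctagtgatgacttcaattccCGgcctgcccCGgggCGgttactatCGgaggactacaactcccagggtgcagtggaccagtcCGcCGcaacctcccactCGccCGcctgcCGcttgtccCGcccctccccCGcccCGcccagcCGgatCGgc

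The Elavl1 stretch holds 31 CpG, with an observed count 1.12 times that expected from its C and G content, and the Cnot4 stretch holds 22. The Mrvi1 stretch holds 3 CpG, at 0.14 times expected, and the Arl6ip1 stretch holds 15, at 0.71 times expected. That pair does not stand for all island peaks. For the island peak assigned to Fsd1 the order was reversed, with 0.54 before Fsd1 and 0.11 before Lrg1, the start nearest the same number on GRCm38. For the peak assigned to Fabp3 the values were 0.68 before Fabp3 and 0.85 before Adgrb2. A promoter was counted as CpG-rich where the 300 bases from 250 before to 50 after the start had a GC content of at least 50% and a CpG ratio of at least 0.6, which 33.5% of all 32851 windows in the table met.

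Island and shore peaks were mostly far from the mm9 start of the assigned gene, and mostly near a gene start of the same position number on GRCm38. Peaks carry mm9 positions, and the location class of 334 of the 334 marked peaks followed from their mm9 distance to the assigned gene. On that build, an island-marked peak was rarely at a gene start: 2 of 45 island peaks (4.44%, exact 95% interval 0.543% to 15.1%) were within 1 kb of the start of the assigned gene, as were 7 of 285 shore peaks (2.46%) and 85 of 7401 peaks with no mark (1.15%). Peaks on chromosome 18 are left out of these counts, since promoters there were not analysed here.

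When the same position number was instead looked up among the starts of GRCm38, the distances ordered themselves by mark. Within 1 kb of a CpG-rich start of the same number lay 27 of 45 island peaks (60.0%, 44.3% to 74.3%), 45 of 285 shore peaks (15.8%, 11.8% to 20.6%), 0 of 206 shelf peaks (up to 1.77%) and 5 of 7401 peaks with no mark (0.0676%). Within 5 kb the shore share was 59.3% and the shelf share 56.8%, against 0.567% of peaks with no mark. The median distance to such a start was 0.458 kb for island, 2.32 kb for shore, 4.20 kb for shelf and 142 kb for no mark. The mm9 medians of the same peaks were 24.9, 32.6, 28.9 and 64.0 kb. This reading was chosen after the data were seen.

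**Figure D1:**
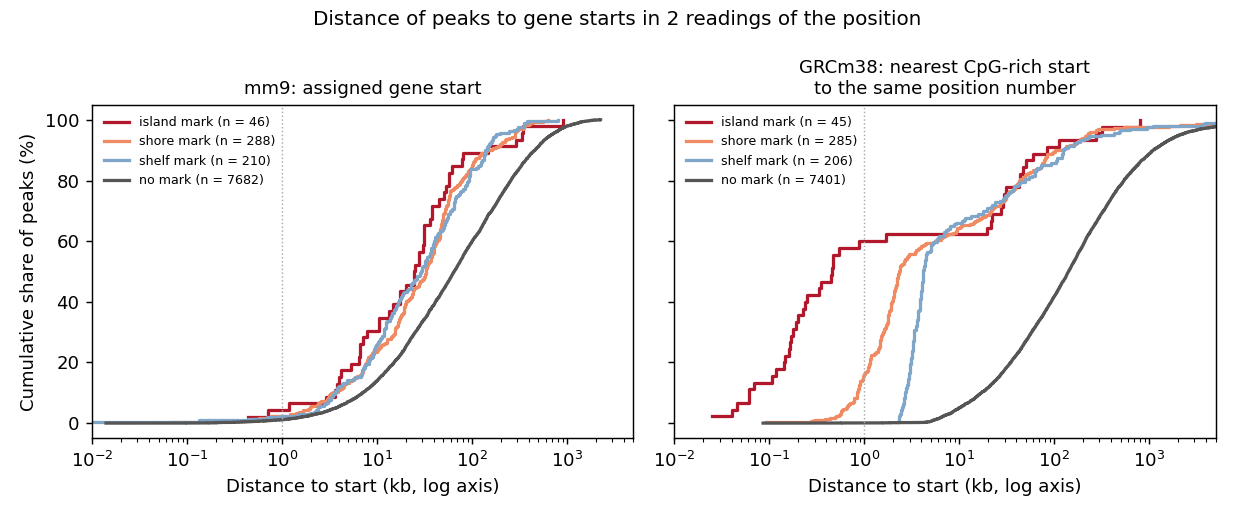
Cumulative share of peaks (%) against distance to a gene start (kb, log axis), by mark; the left panel uses the mm9 start of the assigned gene and the right panel the nearest CpG-rich GRCm38 start to the same position number, with chromosome 18 left out. In the left panel the island, shore and shelf curves overlap, while in the right panel they separate, with medians of 0.458, 2.32 and 4.20 kb, and the curve with no mark has its median at 142 kb.

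The position numbers themselves were not those of GRCm38. Of all peaks, 63 lay past the last RefSeq start of the GRCm38 table on their chromosome, 37 of them on chromosome 7, where the last peak at position 152522091 was 7.21 Mb past it. Whether an island or shore lies at these mm9 positions was not tested, since no mm9 island annotation was used here, so the peaks are called below by their mark. The assigned gene started within 1 kb of the same number in both builds for 8 of the 263 marked peaks that could be compared, and the median offset of all 263 was 187 kb.

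Those 8 peaks lay on chromosomes 8, 16 and 19. The island peak at Elavl1 was at position 4325541 of chromosome 8, 0.441 kb before the start, with a height of 7 under Dnmt1-Dam and of 1 under Dam-only. The other 7 were shore peaks. Tcirg1, a proton pump subunit of osteoclasts, had a peak 69 bp after its start, and Ndufs8, a subunit of respiratory complex I, had one 3.27 kb into the gene. Both had a Dnmt1-Dam height of 8, and the Dam-only heights were 1 and 2.

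The peak at Smpd4, a sphingomyelinase, was 1.98 kb before the start, and that at the uncharacterised gene 1810055G02Rik was 2.51 kb after it. The peak assigned to Gsc2, a homeobox gene, was 1.64 kb from its start. Sox1, a neural transcription factor, was 33.0 kb away and Cd47, a surface protein that restrains phagocytosis, was 188 kb away. The Dnmt1-Dam heights of these 5 were 7 or 8, each against 1. Of the 8 peaks, 6 (75%) were within 5 kb of the assigned start, against 31 of the 255 other marked peaks that could be compared (12.2%). Among peaks with no mark the same shares were 3.34% of 329 and 7.65% of 5565. With only 8 peaks, the share of 75% is imprecise.

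The look-up was also run from the genes. Of 31 peaks within 1 kb of the mm9 start of a gene whose promoter windows were all CpG-rich, 2 carried an island mark, 0 a shore mark, 2 a shelf mark and 27 no mark. Within 2 kb there were 90 such peaks, of which 81 had no mark. Peaks with no mark made up 93.4% of the whole list.

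Single peaks show how the readings differ. Of the 28 island peaks with any GRCm38 start within 1 kb of the same number, 25 had no start of the assigned gene within that distance. Fabp3, the fatty-acid-binding protein of heart muscle, was assigned a peak 0.711 kb before its mm9 start, and the same number on GRCm38 lies 441 bp after the start of Adgrb2, an adhesion receptor of brain. Atxn2, which encodes an RNA-binding protein with a polyglutamine tract, was assigned a peak 2.88 kb before its start, and the same number lies 466 bp after the start of Ppp1cc, a catalytic subunit of protein phosphatase 1.

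The Mrvi1 peak, at position 118129401 of chromosome 7, was 3.79 kb before the Mrvi1 start on mm9, and the same number lies 224 bp after the start of Arl6ip1, whose sequence stands above. Dnajc1, a chaperone of the endoplasmic reticulum membrane, and Cnot4 were the nearest gene in the GRCm38 reading too. Their peaks were 78.6 and 50.2 kb before the mm9 start, while the same numbers lie 69 bp after the GRCm38 start of Dnajc1 and 144 bp before that of Cnot4. The third island peak with its assigned gene within 1 kb was that at Elavl1, although the start of Ccl25, a chemokine, was nearer, at 331 bp. Among shore peaks, 212 of 285 had a GRCm38 start within 5 kb of the same number, and 200 of them had no start of the assigned gene within that distance.

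Height was the authors' value for each peak, a whole number in each library. The sources used here do not state whether heights are raw or scaled, so the depth behind a value is unknown. The table holds selected positions: the smallest Dnmt1-Dam height was 7, the smallest Dam-only height 1, the smallest difference 6 and the smallest ratio 2. Positions where Dam-only matched or exceeded Dnmt1-Dam were not analysed here. Intervals on shares treat peaks as independent and cover counting error only, since peaks share 2 libraries amplified by PCR without molecular identifiers.

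The heights of marked peaks were much like those of peaks with no mark. Heights belong to mm9 positions, and whether an island or shore lies there was not tested. The heights, Dam-only shares and ratios below therefore compare marks. How the Dnmt1-Dam signal at islands or shores themselves compares with that elsewhere was not tested. The 46 island peaks ranged from 7 to 25 with a median Dnmt1-Dam height of 8.5 (exact 95% interval 8 to 9), and the 288 shore peaks from 7 to 66 with a median of 9 (8 to 9). Peaks with no mark had a median of 9 and reached 202. The groups overlapped, each starting at 7, and 15 island peaks (32.6%) and 69 shore peaks (24.0%) stood at the lowest listed height of 7, as did 26.9% of peaks with no mark.

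A Dnmt1-Dam height of 15 or more was found at 8.66% of all 8226 peaks. It was found at 29 of 334 marked peaks (8.68%, 5.89% to 12.2%), 2 of them island (4.35%, 0.531% to 14.8%) and 27 shore (9.38%, 6.27% to 13.4%), and at 671 of 7682 peaks with no mark (8.74%, 8.11% to 9.39%). A Dam-only height of 2 or more was found at 24.2% of all peaks, at 11 island peaks (23.9%), 76 shore peaks (26.4%) and 23.9% of peaks with no mark. The interval of each mark held the share of all peaks for both measures. The measures were not independent: with a smallest difference of 6, a peak at the lowest height of 7 could only have a Dam-only height of 1.

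The ratio of the heights was 10 or more at 23.4% of all peaks. Island peaks reached it in 7 of 46 cases (15.2%, 6.34% to 28.9%) and shore peaks in 69 of 288 (24.0%, 19.2% to 29.3%). The median ratio was 7 for island and 8 for shore and for no mark, and the median log2 ratio, with 1 added to both heights, was 2.0, 2.17 and 2.17. The intervals of both marks again held the share of all peaks.

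**Figure D2:**
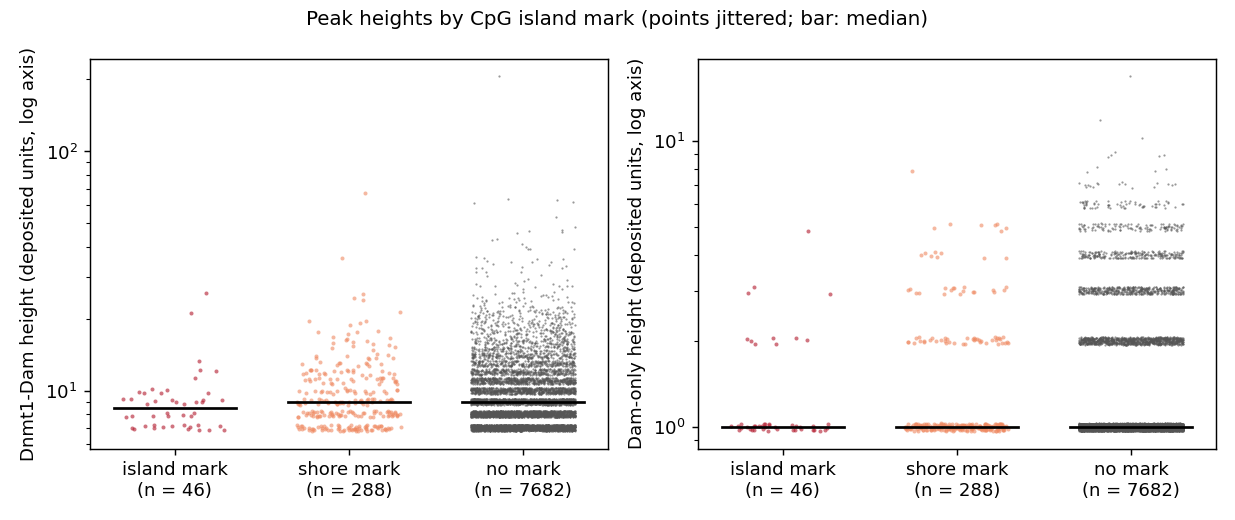
Height of every peak (deposited units, log axes) with Dnmt1-Dam, left, and Dam-only, right, for 46 island, 288 shore and 7682 peaks with no mark; points are jittered and bars are medians. The Dnmt1-Dam medians are 8.5, 9 and 9, and the Dam-only median is 1 in each.

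The highest marked peak was a shore peak assigned to Bcas1, a gene of myelinating cells, at position 170128281 of chromosome 2. It was 125 kb after the gene's start, in an intergenic region with no repeat named, and its heights were 66 with Dnmt1-Dam and 1 with Dam-only. A shore peak 100 bp away had 18 against 1. The same number on GRCm38 lies 2939 bp after the start of Zfp217, a zinc finger repressor.

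The next shore peak, 78.2 kb from Abo, the blood group glycosyltransferase, had 35 against 2. Ptgis, the prostacyclin synthase, had 26 against 5 at a SINE 40.1 kb before its start, so that its ratio was 5.20 while that at Abo was 17.5. Ap3d1, a subunit of a vesicle adaptor, had 24 against 1 inside the gene. Zfyve28, a FYVE-domain protein, had 24 against 2, and D3Ertd751e had 22 against 1.

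The remaining 4 of the 10 highest shore peaks had heights of 19 or 20. They were inside Lyzl4, a lysozyme-like gene (20 against 1), Tspan5, a tetraspanin (19 against 1), and Kat7, a histone acetyltransferase that the file lists as Myst2 (19 against 2), and 8.95 kb before Eif3a, a translation initiation subunit (19 against 2). Of these 10 shore peaks, 5 were in gene bodies and 4 were intergenic, and that at Eif3a was in a distal promoter.

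Island peaks had 2 high members. The peak assigned to Tmpo, a protein of the nuclear lamina, had 25 against 5 at a LINE and LTR 336 kb before the gene's start, on chromosome 10 at position 90970081. The peak inside Nek5, a kinase gene, had 21 against 1 at a SINE. Neither had a CpG-rich GRCm38 start near the same number: the nearest start of any gene was 112662 bp away for Tmpo and farther still for Nek5.

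The next island peaks were lower. Ptpn20, a tyrosine phosphatase, had 13 against 2. Kyat3, a kynurenine aminotransferase listed as Ccbl2, and Mrvi1, a partner of the inositol trisphosphate receptor, each had 12 against 1. No other island peak exceeded 11.

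Dam-only height was highest at the shore peak 40.1 kb before Psap, the precursor of lysosomal saposins, with 18 against 8, a ratio of 2.25. In all, 9 marked peaks had a Dam-only height of 5 or more, 8 of them at 5. Of these, Ptgis and Tmpo stand above. Trpv5, an epithelial calcium channel, had 16 against 5, and Prpsap2, a regulator of nucleotide precursor synthesis, had 15 against 5 at 5.58 kb before its start. A shore peak 440 bp from that at Psap had 8 against 1, so that neighbouring positions differed in the Dam-only signal.

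By location class, 36 of the 334 marked peaks were in a promoter class (10.8%, 7.66% to 14.6%), against 6.51% of peaks with no mark (5.97% to 7.08%). Of the island peaks, 3 were proximal promoter, 4 distal promoter, 21 gene body and 18 intergenic. Of the shore peaks, 15 were proximal promoter, 14 distal promoter, 137 gene body (47.6%) and 122 intergenic (42.4%, 36.6% to 48.3%). Intergenic peaks made up 51.6% of those with no mark (50.4% to 52.7%), so that marked peaks were less often intergenic by mm9 position. Shelf peaks were intergenic in 37.6% of cases and in gene bodies in 53.8%. The gene body share of marked peaks was 47.3% (41.85% to 52.81%), an interval that held the 41.93% of peaks with no mark. The promoter share was not apart from that of unmarked peaks at Dnmt1-Dam heights of 9 or more, where it was 8.94% (5.20% to 14.1%) against 7.16%. Shelf peaks had a promoter share of 8.57% (5.16% to 13.2%), which lay within the interval of the marked peaks.

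The 7 island peaks in promoter classes had Dnmt1-Dam heights of 7 to 12. Besides Mrvi1, Atxn2 (10 against 1), Fabp3 (9 against 3) and Elavl1 (7 against 1), they were assigned to Ero1b, an endoplasmic reticulum oxidase, with 9 against 2 at 7.91 kb before the start, and Fsd1, a microtubule-associated protein, with 8 against 2 at 5.29 kb before the start. Atp9a, a phospholipid flippase, had 7 against 1 at 3.57 kb before its start.

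The promoters of genes assigned to marked promoter peaks had CpG ratios close to those at promoter peaks with no mark. Of the 36 genes, 30 had a RefSeq window, 43 windows in all, with a median CpG ratio of 0.64 (0.35 to 0.70). The 457 windows of genes with a promoter peak and no mark had 0.66 (0.61 to 0.70), and all windows 0.38. CpG-rich windows made up 46.5%, 53.6% and 33.5% of these sets.

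The sequence GATC, which is its own reverse complement and is the site that Dam methylates, was present in 24 of the 43 windows (55.8%, 39.9% to 70.9%) and in 48.0% of all windows of 300 bases. A match only describes the letters of the window. No marked peak lay between 250 bases before and 50 after its assigned start, as 13 of all peaks did. The shore peak at Rgs14, a regulator of G-protein signalling, was 0.511 kb before the start with 16 against 1.

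By mm9 position, marked peaks, like shelf peaks, lay nearer to gene starts and in shorter genes than peaks with no mark. Whether the marks belong to these mm9 places was not tested. The median mm9 distance to the start of the assigned gene was 31.4 kb for marked peaks (24.3 to 37.0 kb) and 64.8 kb for peaks with no mark (61.7 to 68.5 kb), and shelf peaks had 29.2 kb. Genes holding a gene body peak had a median length of 36.4 kb for island (25.1 to 65.0 kb) and 56.6 kb for shore (44.6 to 65.3 kb). The median was 63.7 kb for shelf (41.2 to 85.2 kb) and 116 kb for no mark (110 to 122 kb). Shore peaks inside genes were at a median 61.9% of the way along the gene (54.8% to 72.7%), against 52.7% for no mark (51.1% to 54.3%). Island peaks were at 54.0% (28.1% to 83.4%) and shelf peaks at 50.2% (42.4% to 58.0%), and both intervals held the value for no mark.

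A SINE, a short retroelement common in gene-rich DNA, was named at 73 of the 334 marked peaks (21.9%, 17.5% to 26.7%) and at 16.8% of peaks with no mark (16.0% to 17.7%). In intergenic DNA it was 35 of 140 (25%, 18.1% to 33.0%) against 14.8% (13.7% to 15.9%), and in gene bodies 35 of 158 (22.2%, 15.9% to 29.4%) against 18.2%, a share within the interval. The difference between these locations was not tested. At Dnmt1-Dam heights of 9 or more the interval of marked peaks also held the share of unmarked peaks, with 21.8% (16.0% to 28.6%) against 17.8%. An LTR was named at 2 island and 32 shore peaks (11.1%), against 10.9% with no mark. A LINE was named at 18 marked peaks (5.39%, 3.225% to 8.384%), against 8.37% with no mark, a share within the interval. No repeat was named at 60.2% and 60.4%.

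Retroelements were also named at 9 of the 27 island peaks near a CpG-rich GRCm38 start of the same number (33.3%, 16.5% to 54.0%). That share was 30.4% for all island peaks, 37.2% for shore peaks and 35.1% for peaks with no mark. Which build the repeat column follows was not tested.

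**Figure D3:**
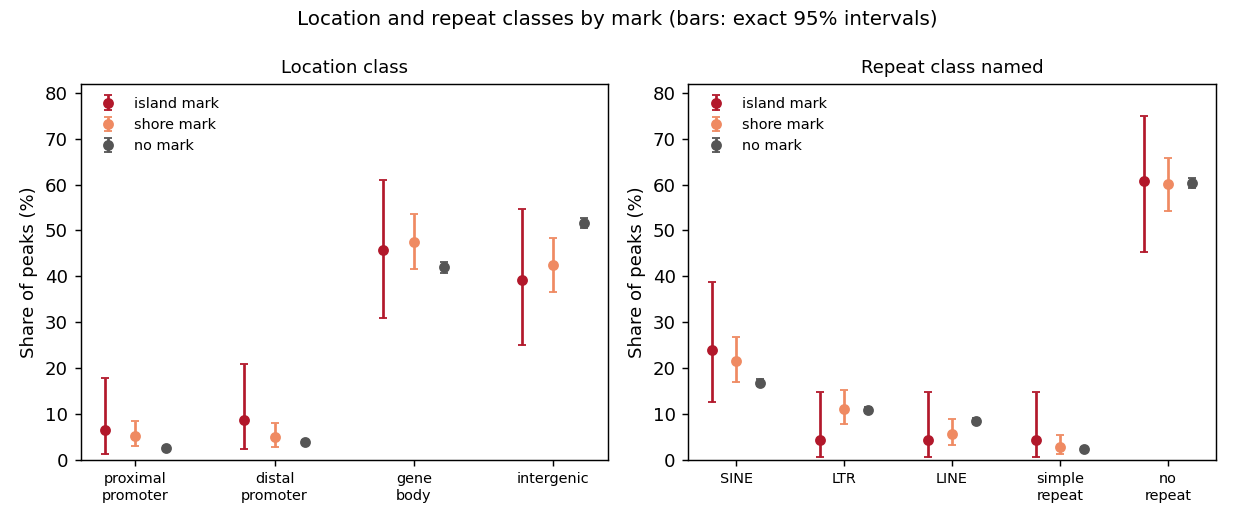
Share of peaks (%) in each location class, left, and with each repeat class named, right, for island, shore and no mark; points are shares and bars are exact 95% intervals. The intergenic share is 42.4% for shore and 51.6% for no mark, and a SINE is named at 23.9% of island, 21.5% of shore and 16.8% of peaks with no mark.

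The marked share differed between chromosomes. It was above the overall 4.06%, with an interval that left it out, on chromosome 2 (38 of 642 peaks, 5.92%), chromosome 11 (38 of 506, 7.51%) and chromosome 17 (23 of 319, 7.21%). It was below on 6 chromosomes, among them chromosome 1 (10 of 605, 1.65%) and chromosome 12 (3 of 349, 0.860%). The other 12 chromosomes had intervals that held it, including X, with 5 of 197 (2.54%), and Y, with 0 of 1. These 21 intervals were not adjusted for their number, and the density of islands or genes on each chromosome was not compared. Among peaks with Dnmt1-Dam heights of 9 or more, 4 chromosomes rather than 9 had an interval that left out the share of all peaks, with fewer peaks to count.

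**Figure D4:**
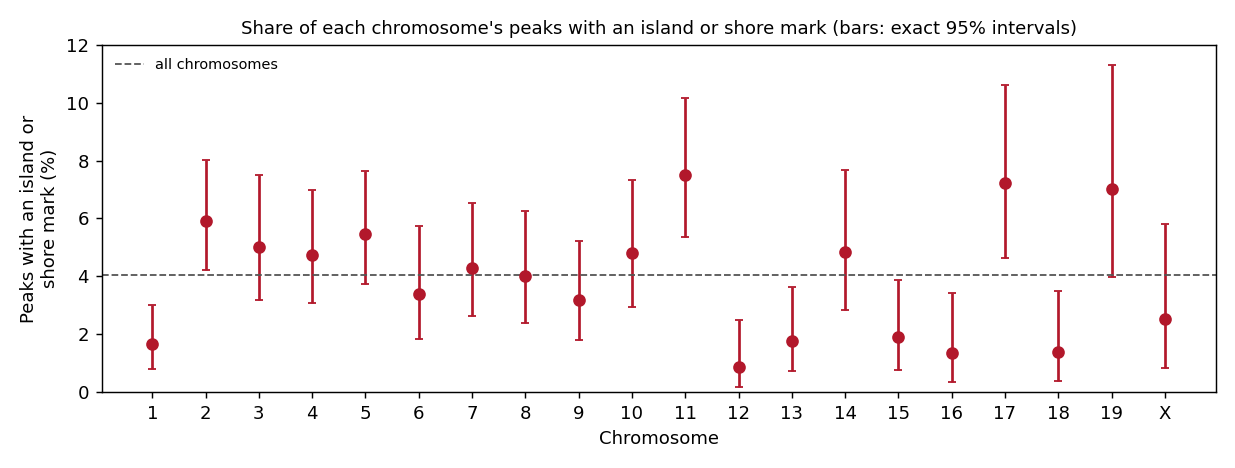
Share of each chromosome's peaks with an island or shore mark (%), as points with exact 95% intervals; the dashed line is the share on all chromosomes, and Y, with 1 peak, is not drawn. Chromosome 11 is highest at 7.51% and chromosome 12 lowest at 0.860%.

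Neighbouring marked peaks carried the same mark. Within 1 kb of another peak lay 2 island peaks and 31 shore peaks (10.8%), in all 9.88% of marked peaks against 12.1% with no mark. They formed 16 groups of peaks, 15 of shore peaks only and 1 of island peaks only, the latter inside Tctn1, a gene of the ciliary transition zone, with 8 against 1 at both of 2 positions 120 bp apart.

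Pdxk, which encodes the kinase that activates vitamin B6, was the only gene with 3 marked peaks. They were shore peaks within 260 bp on chromosome 10, from 77977131 to 77977391, about 49.4 to 49.7 kb before the start. Their Dnmt1-Dam heights were 7, 16 and 17, each against 1, and the 2 outer positions had an LTR named. Of the other genes, 291 had 1 marked peak and 20 had 2.

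The share of genes with a marked peak was 3.57% for the DNA methylation machinery and 1.96% for developmental regulators. It was 2.22% for imprinted genes and 0% for housekeeping genes, against 1.46% of all genes with a curated mRNA. With 1 gene or none per list, no list could be told apart from all genes in how often it had a marked peak. Of 28 genes of the DNA methylation machinery, Dnmt1 alone had one, a shore peak at a SINE 31.4 kb into the gene with 16 against 1, at position 20725941 of chromosome 9. On GRCm38 the same number lies 1062 bp after the start of Olfm2, a secreted glycoprotein gene. Of 51 developmental regulators Sox1 had one (8 against 1), and of 45 imprinted genes Phactr2, a phosphatase and actin regulator, had one 19.5 kb before its start (7 against 1).

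None of 27 housekeeping genes with CpG island promoters had a marked peak. A peak of any mark was assigned to 9, 25, 12 and 7 genes of the 4 lists. Among all 21035 genes with a curated mRNA, 307 had a marked peak (1.46%) and 4766 had any peak.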

How the data were processed

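The deposited table gives 1 position per peak and, as signal made by the authors, its height in the Dnmt1-Dam and Dam-only libraries. The genome build was mm9 and the tools were CASAVA and BWA, per the submitters' processing notes. How peaks were found, with which thresholds, and how duplicate reads were treated is not given in the sources used here. Also deposited are the CpG island mark, location class, repeat classes and assigned gene.

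Members, comparisons and the 4 gene lists (151 genes) were chosen with earlier results of these data known. Heights were compared as medians with exact order-statistic intervals, and shares with exact Clopper-Pearson intervals, both at 95%, and the code was tested on simulated data. Log2 ratios had a pseudocount of 1. Close neighbours were peaks no more than 1 kb apart. Proximal promoter reached from 3 kb before to 1 kb after the start, and distal promoter to 10 kb before. Python 3.11.15, numpy 2.4.6, pandas 2.3.3 and scipy 1.17.1 were used.

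Named peaks were the 10 highest shore and 5 highest island peaks, all island promoter peaks, 5 of the highest by Dam-only height (ties at 5 broken by Dnmt1-Dam height, then position), genes with 3 or more marked peaks, and members of the lists. Peaks named for the look-up on GRCm38, for neighbouring marks (Tctn1) or for distance to the start (Rgs14) were picked after their values were seen. Of 312 accessions at members, 309 were matched to RefSeq names (GRCm38.p6), and 57 symbols were updated. Promoter sequences are RefSeq GRCm38.p6, matched by gene. No position was converted between builds: the look-up on GRCm38 used the unchanged number to set both readings side by side, and it and the definition of CpG-rich were added after the data were seen. Alternatives covered the height floor, Dam-only height, close neighbours, autosomes, pseudocount and annotation choices.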

Additional observations from a re-analysis of the deposited data

How the results depend on the processing

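Of 62 alternatives, 16 moved the value of marked peaks beyond its interval (counts of chromosomes and genes, which have none, by a fixed ratio), and 46 did not. Of the 46, taking shelf peaks as the comparison could not move it. Keeping autosomes only could not move the share of island peaks near a CpG-rich GRCm38 start, since no island peak lay on X or Y. Keeping only peaks with a Dnmt1-Dam height of 9 or more raised, by construction, the median height to 11 and left out the height of 7, where Dam-only was 1. A Dam-only height above 1 was then found at 37.4% of marked peaks, and the median log2 ratio was 2.32. The number of chromosomes whose interval left out the overall share fell from 9 to 4, with fewer peaks to count. At 15 or more these were 18, 44.8%, 3.09 and 2, with a SINE at 34.5%, a neighbour within 1 kb at 13.8%, and 0 island peaks (0%) near a CpG-rich GRCm38 start, out of 2 such island peaks. A pseudocount of 0 gave a log2 ratio of 3.0, and a pseudocount of 10 gave 0.71, for marked peaks. Peaks with no mark moved alike under the 2 floors, to median heights of 11 and 17, Dam-only shares of 37.8% and 45.9% and log2 ratios of 2.32 and 3.0, while their SINE share was 20% and their neighbour share 9.84% at 15 or more; the interval of marked peaks for SINE, 17.9% to 54.3%, held theirs. Added after the data were seen, the median distance of marked peaks to any start was 1.82 kb at the same number on GRCm38, and 4.44% of island peaks were within 1 kb of the mm9 start. Genes of the lists with a marked peak fell from 3 to 1 within the gene or 10 kb of its start. The Dam-only share among peaks with a Dam-only height of 1, and close neighbours with 1 peak per group, have no value by construction. With 46 island peaks, a gap between island and shore of a few percentage points was not detectable.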
